A study of Rattus norvegicus with 12 samples.

Results

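This account concerns 10 genes of the hypoxia response and of glycolysis in the rat skull roof (calvaria), sampled 72 h after surgery. The genes are Slc2a1, Hk2, Pfkfb3, Pgk1, Ldha, Slc16a3, Vegfa, Adm, Egln3 and Ndrg1, taken by name among the array's non-control probes. They were chosen with earlier results of these data known, as were the related lists and cell type markers below. Counts in these lists therefore describe the data and do not test them. All 10 were among the 22718 gene names that passed the filter on dim probes. Bone was taken from rats 10 weeks old in 3 groups of 4 arrays each. In the laser group a rectangular defect of 8 by 3 mm was cut with an Er:YAG laser, which removes mineralised tissue with infrared pulses. In the bur group a defect of the same size was drilled with a rotating bur. In the control group the bone was not cut. The design text calls these controls untreated, while the protocol has their periosteum, the membrane over the bone, removed, so it is not settled whether a difference from control includes the effect of that removal. No strain or sex is given. The labels number the samples 1 to 4 in each group without saying if each number is its own animal, so a p-value here weighs a difference against a spread that may be technical.

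When oxygen is short, the prolyl hydroxylases that mark hypoxia-inducible factor (HIF) for destruction slow down, and HIF accumulates. HIF then switches on genes that bring glucose into the cell, carry it through glycolysis, export the lactate formed, and signal to blood vessels. In bone, HIF in osteoblasts and osteocytes is known for linking oxygen supply to vessel growth, and glycolysis is a main energy source of bone-forming cells.

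Values are log2 levels: the processed intensity of a gene's brightest kept probe on an array, relative to that array's 75th percentile. A level of 0 therefore lies at the 75th percentile, and levels of different genes are not set against each other because probes differ in brightness. The arrays had 58.1% to 67.0% of spots well above background, and each of the 10 genes was well above background on all 12 arrays. All 4 control arrays were on another slide and scan than the 8 laser and bur arrays, so slide and surgery cannot be told apart when laser or bur is set against control. Laser and bur arrays shared a slide, with each group in its own column of it. All 7 measured osteoblast markers and 5 of 6 listed osteocyte markers were well above background on every array, and the sixth, Fgf23, was not among the genes kept.

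Slc2a1, the glucose carrier GLUT1, had the largest difference of the 10 in both comparisons with control. Its log2 level was 0.33, 1.31, 1.82 and 0.41 on the laser arrays, 0.38, 0.96, 2.5 and 0.49 on the bur arrays, and -1.37, -0.10, -0.48 and -2.58 on the control arrays. Every laser and every bur array was above every control array. The laser mean exceeded the control mean by 2.10 (SE 0.60, limma adjusted p = 0.0316), a 4.30-fold difference, and the bur mean exceeded it by 2.22 (SE 0.60, limma adjusted p = 0.0219), a 4.65-fold difference. The control values themselves spread over 2.48 log2 units. The call in laser was lost when laser replicate 2, laser replicate 3, control replicate 1 or control replicate 4 was left out (limma adjusted p = 0.0804, 0.0883, 0.0834 and 0.0776). The call in bur was lost without bur replicate 3, control replicate 1 or control replicate 4 (limma adjusted p = 0.0570, 0.0604 and 0.0542). Without any of these arrays the difference stayed at 1.62 or above in laser and at 1.73 or above in bur.

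Among the genes that passed the threshold, the start region of Slc2a1 held the core letters of the HIF binding site, so its sequence is shown. Windows from 250 bases before to 50 bases after each annotated start, from RefSeq on build GRCr8, were searched on both strands for ACGTG and GCGTG, the forms of that core. The reverse strand reads CACGT and CACGC, and CACGTG holds a match on each strand. The windows of 8 of the 10 genes were found, without Ndrg1 and Pgk1, and those of Slc2a1, Ldha and Pfkfb3 held a match. Among all 33469 windows in the table, 41.6% held at least 1 match and 8.15% held 3 or more. Slc2a1 had 4 matches and Ldha had 6, while both windows of Vegfa had none. The part before the start is printed here for Slc2a1 (chr5:138002272-138002521, plus strand) and for Ldha (chr1:106507842-106508091, plus strand), Ldha being chosen after its values were seen. Capitals mark each match that lies wholly in the printed part.
Slc2a1 promoter: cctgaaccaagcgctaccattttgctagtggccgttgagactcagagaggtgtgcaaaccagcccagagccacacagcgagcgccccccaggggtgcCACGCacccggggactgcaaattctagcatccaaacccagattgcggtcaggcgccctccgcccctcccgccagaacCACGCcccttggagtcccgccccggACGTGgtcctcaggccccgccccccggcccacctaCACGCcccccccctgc
Ldha promoter: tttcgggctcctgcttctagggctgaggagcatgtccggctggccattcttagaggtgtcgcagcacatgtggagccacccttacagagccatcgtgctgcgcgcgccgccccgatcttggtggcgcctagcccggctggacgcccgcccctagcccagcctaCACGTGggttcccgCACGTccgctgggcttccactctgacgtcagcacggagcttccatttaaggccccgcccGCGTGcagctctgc
A match is a stretch of letters and not a measured binding site.

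Hk2, hexokinase 2, traps glucose in the cell by phosphorylating it. Its log2 level was -1.60, -0.55, -1.24 and -1.67 on the laser arrays, -1.42, -0.77, -0.41 and -1.92 on the bur arrays, and -2.61, -1.79, -1.88 and -2.09 on the control arrays. The laser arrays lay above all control arrays, while bur replicate 4 lay within the control range. The difference was 0.83 in laser (SE 0.34, limma adjusted p = 0.0998) and 0.96 in bur (SE 0.34, limma adjusted p = 0.0591), and neither passed the threshold of 0.05. With the replicate number as a block, the laser difference passed it (limma adjusted p = 0.0301). The bur difference passed when laser replicate 2 or bur replicate 4 was left out (limma adjusted p = 0.0486 and 0.0314).

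Ndrg1, a stress-response gene that HIF is known to induce, differed from control in the same direction as Slc2a1. Its log2 level was -1.16, -0.32, 0.30 and -0.92 on the laser arrays, -0.84, -0.31, 0.95 and -0.76 on the bur arrays, and -2.19, -1.41, -1.52 and -2.48 on the control arrays. No laser or bur array fell into the control range. Ndrg1 was higher by 1.37 in laser (SE 0.43, limma adjusted p = 0.0424) and by 1.66 in bur (SE 0.43, limma adjusted p = 0.0196), which is 2.59-fold and 3.16-fold. The laser call held in 5 of the 12 fits that left out an array and was lost without laser replicate 2, 3 or 4, bur replicate 2, or control replicate 1, 2 or 4 (limma adjusted p between 0.0508 and 0.116). The bur call was lost without control replicate 1 or control replicate 4 (limma adjusted p = 0.0568 and 0.0532).

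Vegfa encodes the growth factor that draws new vessels into tissue, and it passed the threshold in laser but not in bur. Its log2 level was 0.70, 0.68, 1.25 and 1.5 on the laser arrays, 0.12, 0.06, 1.44 and 0.93 on the bur arrays, and 0.07, -0.02, 0.15 and -0.57 on the control arrays. All laser arrays were above all control arrays, while bur replicates 1 and 2 lay within the control range. The laser difference was 1.13 (SE 0.32, limma adjusted p = 0.0312) and the bur difference 0.73 (SE 0.32, limma adjusted p = 0.107). Laser and bur themselves differed by 0.39, with a 95% interval from -0.30 to 1.09 and a limma adjusted p of 0.9998, so the arrays do not show that Vegfa differed between the tools. The laser call was lost without laser replicate 2, 3 or 4 or control replicate 1, 2 or 4 (limma adjusted p between 0.0541 and 0.0817).

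The array carried 3 probes for Vegfa, and they did not give the same call in laser. All 3 differences were positive, at 1.13 for the brightest, 0.995 for A_64_P099891 (limma adjusted p = 0.0553) and 0.38 for A_44_P1164111 (limma adjusted p = 0.315). In bur the differences were 0.73, 0.52 and 0.18 in the same order, and none passed. In the authors' deposited table the brightest probe and A_64_P099891 both passed in laser, with log2 changes of 0.82 (adjusted p = 0.0202) and 0.97 (adjusted p = 0.0150). The probes lie on build rn4 at chr9:10535933-10535992, chr9:10528551-10528610 and chr9:10531934-10531993 on the plus strand. The opening 30 of the 60 bases of each are shown because the value of Vegfa depends on which probe is read.
Vegfa A_64_P099886: catcacgtctttgtctctagagcagttttc
Vegfa A_64_P099891: ctcaccaaagccagcacataggagagatga
Vegfa A_44_P1164111: tttgtttgtccaagatccgcagacgtgtaa
An annotation of build rn4 was not used here, so the exon under each probe is not given.

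**Figure D1:**
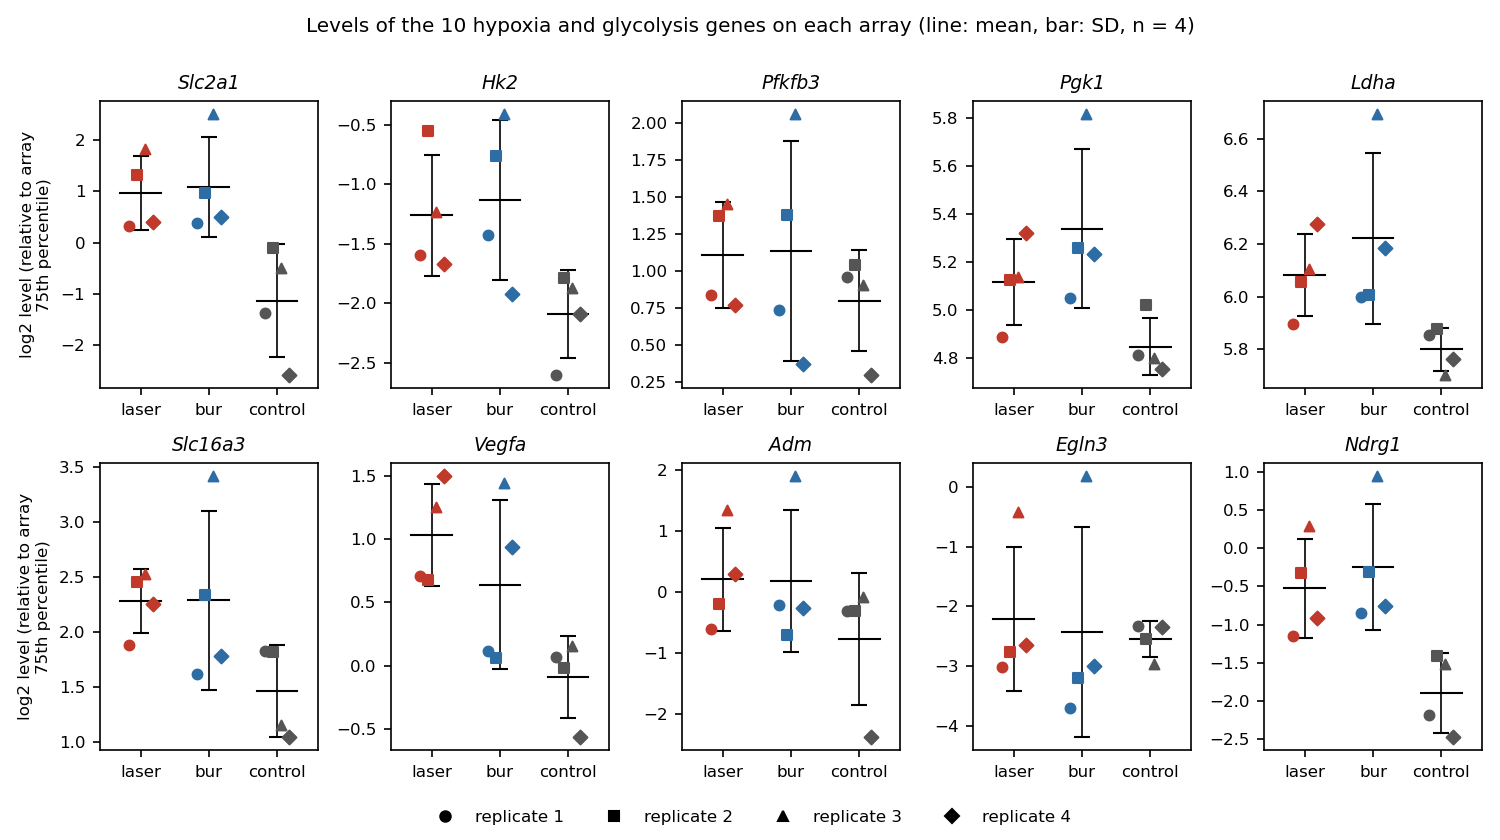
Log2 level relative to the array's 75th percentile for each of the 10 genes, with laser, bur and control from left to right. Each point is an array with its shape giving the replicate number, the line is the mean and the bar is the SD (n = 4). Bur replicate 3 is the highest bur array in all 10 panels, and the laser and bur points of Slc2a1 and Ndrg1 lie above all control points.

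Later steps of glycolysis were measured by Pfkfb3, Pgk1 and Ldha, and none of the 3 passed the threshold in any comparison. Pfkfb3 makes the sugar phosphate that switches on phosphofructokinase. Its levels ran from 0.77 to 1.45 in laser, from 0.37 to 2.06 in bur and from 0.29 to 1.04 in control, and all groups overlapped. Its difference from control was 0.31 in laser and 0.34 in bur (SE 0.33 each, limma adjusted p = 0.519 and 0.471).

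Pgk1, phosphoglycerate kinase, catalyses the step of glycolysis that yields the pathway's earliest ATP. Pgk1 levels were 4.89, 5.13, 5.14 and 5.32 in laser, 5.05, 5.26, 5.82 and 5.23 in bur, and 4.81, 5.02, 4.80 and 4.76 in control. The bur arrays lay above all control arrays, and the laser arrays overlapped with them. The difference was 0.27 in laser (SE 0.17, limma adjusted p = 0.257) and 0.49 in bur (SE 0.17, limma adjusted p = 0.0513). The bur difference passed without bur replicate 1 (limma adjusted p = 0.0475).

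Ldha, the lactate dehydrogenase subunit that turns pyruvate into lactate, had levels of 5.90, 6.05, 6.11 and 6.28 in laser, 6.0, 6.01, 6.69 and 6.18 in bur, and 5.86, 5.88, 5.70 and 5.76 in control. Both sets of cut bone lay wholly above control, narrowly so in laser, where the lowest laser array was at 5.898 and the highest control array at 5.876. The differences were 0.28 (SE 0.16, limma adjusted p = 0.216) and 0.42 (SE 0.16, limma adjusted p = 0.0736). The other 2 Ldha probes gave larger values in bur. A_44_P1362456, which is printed in 10 spots, was higher by 0.69 in laser (limma adjusted p = 0.0387) and by 0.98 in bur (limma adjusted p = 0.0104). A_64_P016403 differed by 0.27 in laser (limma adjusted p = 0.275) and was higher by 0.52 in bur (limma adjusted p = 0.0479). In the authors' deposited table, Ldha is represented by A_44_P1362456 alone, with log2 changes of 0.64 in laser (adjusted p = 0.0120) and 0.89 in bur (adjusted p = 0.00310). Whether Ldha counts as changed thus rests on the probe, and the opening 30 bases of the 3 probes are shown for that reason.
Ldha A_44_P1164248: gatggaaccaaccactcaagtgtcatgcca
Ldha A_44_P1362456: tatcctgggacaaaatggaatctcagatgt
Ldha A_64_P016403: gtgtgtaagtccatcgtgcatatcttgtgc
They lie on build rn4 at chr1:97412488-97412547, chr1:97411929-97411988 and chr1:97412370-97412429 on the plus strand, in the order listed. A pair of Hk2 probes split in bur at the threshold, where A_64_P032574 was higher by 0.81 (limma adjusted p = 0.0421) and the brighter A_44_P1104913 differed by 0.96 (limma adjusted p = 0.0618 over all probes). They lie on the minus strand of chr4:116925790-116925849 and chr4:116924279-116924338 on the same build. In the authors' deposited table both passed in bur, with log2 changes of 0.74 (adjusted p = 0.0106) and 0.93 (adjusted p = 0.00671). Both passed there in laser too, with log2 changes of 0.69 (adjusted p = 0.0157) and 0.82 (adjusted p = 0.0126).
Hk2 A_64_P032574: gaccttggggacaggagtggctttggtcgc
Hk2 A_44_P1104913: ctcggttttgtcactatgtacagtagagaa

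Slc16a3, the carrier MCT4 that exports lactate from glycolytic cells, had levels from 1.88 to 2.53 in laser, from 1.62 to 3.42 in bur and from 1.05 to 1.83 in control. The laser arrays were above all control arrays, and the bur arrays were not. Its difference was 0.82 in laser and 0.82 in bur (SE 0.36 each, limma adjusted p = 0.115 and 0.105). Without bur replicate 3 the SE was 0.25 and the laser difference passed the threshold (limma adjusted p = 0.0436).

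Adm encodes adrenomedullin, a peptide that widens vessels. Its log2 level was -0.61, -0.20, 1.33 and 0.29 on the laser arrays, -0.22, -0.70, 1.89 and -0.27 on the bur arrays, and -0.32, -0.31, -0.08 and -2.38 on the control arrays. The groups overlapped, and control replicate 4 lay far below the other control arrays. The difference was 0.98 in laser and 0.95 in bur (SE 0.65 each, limma adjusted p = 0.290 and 0.295).

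Egln3, the prolyl hydroxylase PHD3, belongs to the oxygen sensors and is itself a gene that HIF is known to induce. Its log2 level was -3.02, -2.76, -0.42 and -2.66 on the laser arrays, -3.70, -3.20, 0.17 and -3.01 on the bur arrays, and -2.34, -2.55, -2.97 and -2.34 on the control arrays. Replicate 3 stood well above the rest in both laser and bur, and the other laser and bur arrays were within or below the control range. The difference was 0.33 in laser and 0.12 in bur (SE 0.78 each, limma adjusted p = 0.780 and 0.927). Without laser replicate 3 the laser difference was -0.26, and without bur replicate 3 the bur difference was -0.75, so the sign of the Egln3 difference turned with those arrays. Without control replicate 3 the bur difference was -0.024.

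Counted together, 3 of the 10 genes rose in laser against control (Slc2a1, Vegfa and Ndrg1) and none fell, where 9.26% of the 22718 genes rose and 13.0% fell. Bur against control gave 2 rises (Slc2a1 and Ndrg1) and no fall, where 9.99% of genes rose and 16.2% fell. All 10 differences were above 0 in both, with a median of 0.82 in laser and 0.78 in bur, against medians of 0.02 and -0.0001 over all genes. The groups did not overlap for 6 of the 10 in laser and for 4 of the 10 in bur, all with the cut bone higher, against 8.87% and 9.60% of all genes in that direction. Both comparisons use the same 4 control arrays. The count of rises fell to 0 in laser without laser replicate 2, laser replicate 3, control replicate 1 or control replicate 4, and was 1 without laser replicate 4 or control replicate 2. In bur it was 0 without control replicate 1 or 4 and 1 without bur replicate 3.

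Laser against bur gave no call among the 10 genes. limma called 0% of the 22718 genes here, while 574 genes (2.53%) had an unadjusted p under 0.05, none of the 10 among them. The differences ran from -0.29 for Ndrg1 to 0.39 for Vegfa, 3 of the 10 were above 0, and the median was -0.07. The 95% intervals bound Pgk1 between -0.59 and 0.15 and Ldha between -0.49 and 0.22, whereas that of Slc2a1 ran from -1.42 to 1.20 and that of Egln3 from -1.50 to 1.93. With the replicate number as a block, which pairs laser with bur arrays, the interval of Slc2a1 was -0.85 to 0.63, that of Ndrg1 -0.76 to 0.19 and that of Egln3 -1.23 to 1.66, and again no gene of the 10 passed (limma adjusted p = 0.9997 for each). Ndrg1 was lower in laser than in bur in all 4 numbered pairs, with laser minus bur at -0.31, -0.01, -0.65 and -0.17. No other gene of the 10 kept its sign in all 4 pairs. In the pair numbered 3, laser was lower than bur for all 10 genes, and bur replicate 3 was the highest bur array for all 10. Bur replicate 3 was the highest bur array for 19.7% of all genes. The shares of all genes lower in laser in the pair numbered 3, or with the same sign in all 4 pairs, are not given. Differences within these intervals cannot be told from none with 4 arrays a group.

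**Figure D2:**
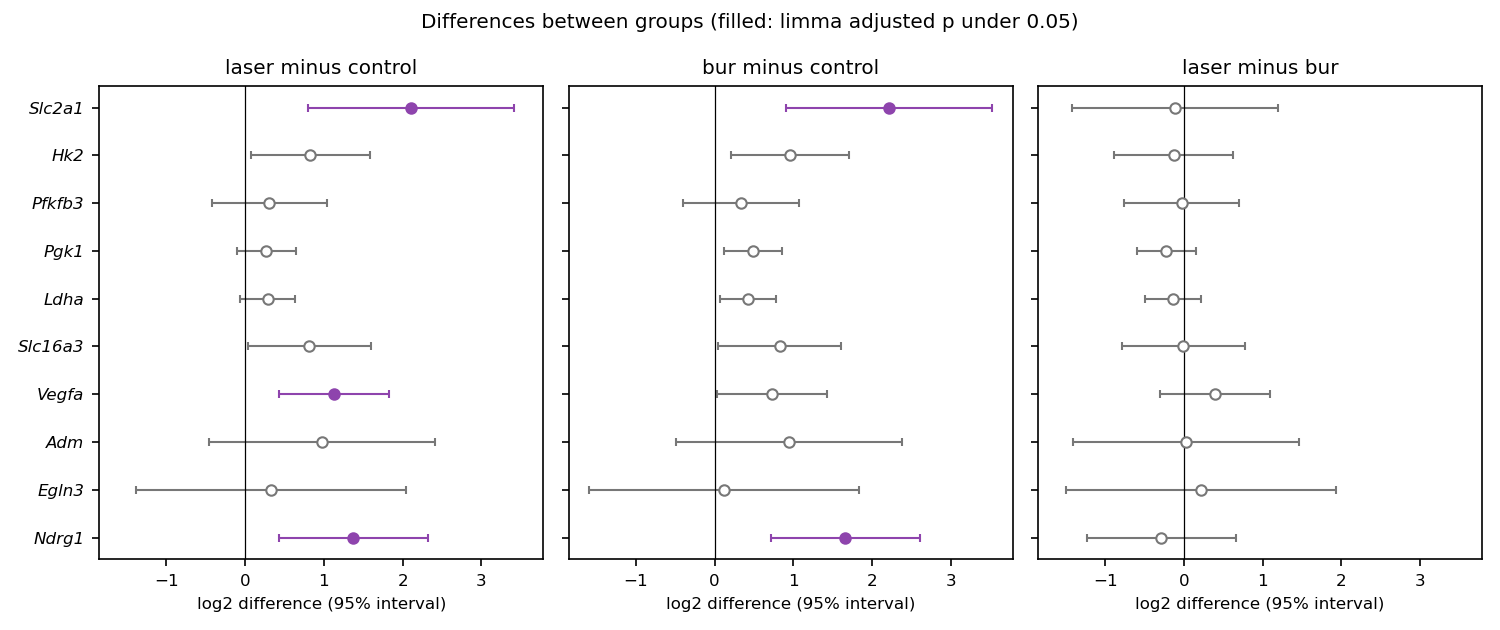
Log2 difference between group means with its 95% interval for each gene, as laser minus control, bur minus control and laser minus bur from left to right. Filled points have a limma adjusted p under 0.05, and there are 3 in laser against control, 2 in bur against control and none in laser against bur.

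**Figure D3:**
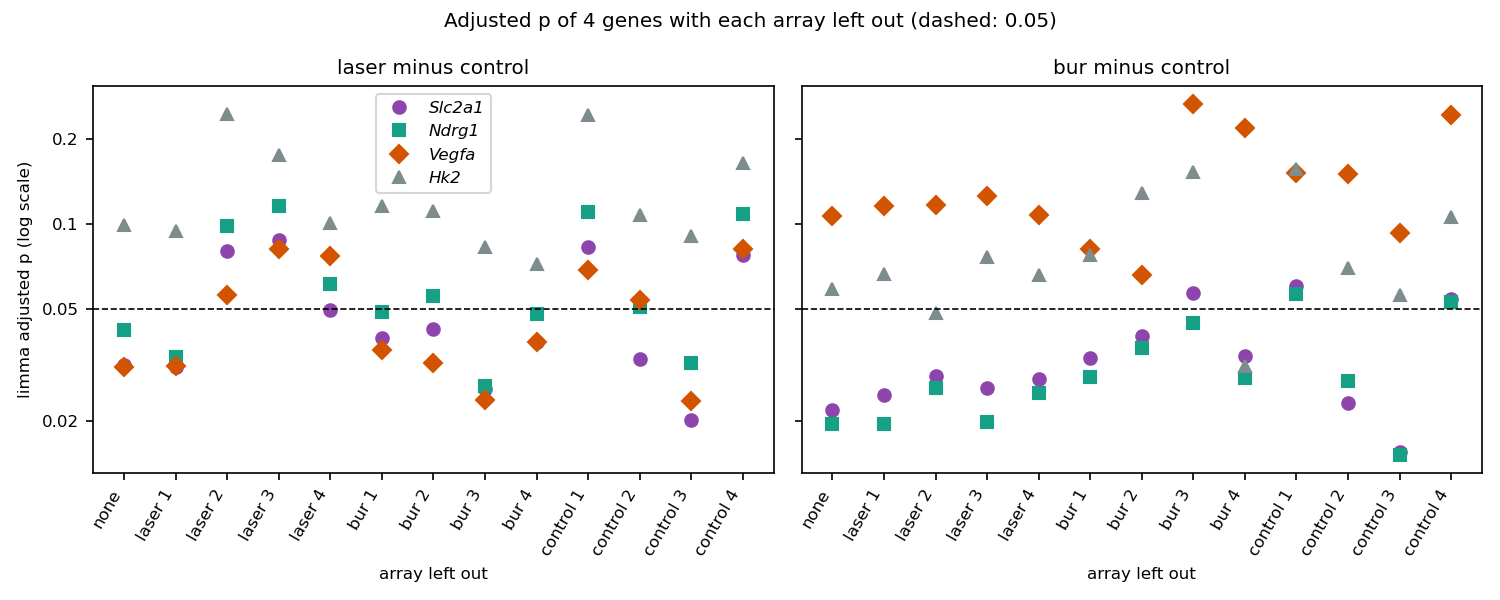
limma adjusted p on a log axis for Slc2a1, Ndrg1, Vegfa and Hk2, with no array left out and with each of the 12 arrays left out in turn, for laser minus control and bur minus control. Points under the dashed line pass 0.05. In laser all 4 genes lie above it without laser replicate 2, laser replicate 3, control replicate 1 or control replicate 4.

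Within the groups, bur replicate 3 and laser replicate 3 stood above the mean of the 12 arrays for all 10 genes. Bur replicate 3 was the highest of the 4 bur arrays for all 10, against 19.7% of all genes, and the highest of the 12 arrays for 9, against 6.15% of all genes. Vegfa was the exception, with its highest level on laser replicate 4. On the other laser and bur arrays, 8 of the 10 lay above their own mean on laser replicate 2, 6 on laser replicate 4, 6 on bur replicate 2 and 5 on bur replicate 4. The number was 3 on bur replicate 1, 2 on laser replicate 1 and 1 on each control array. The share of all genes above their own mean is not given for any array. Laser replicate 3 was the highest laser array for 6 of the 10, and laser replicate 1 the lowest for 7, against 23.5% and 22.7% of all genes. Control replicate 4 was the lowest of the 12 arrays for 7 of the 10, against 17.8% of all genes. The SD was larger in bur than in laser for all 10 genes, against 46.3% of all genes. For Egln3 the SD in bur was 1.76 and 0.36 without replicate 3, and for Adm it was 1.16 and 0.27.

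Averaged over the 10 genes, each first centred on its mean over the 12 arrays, the level was -0.19, 0.31, 0.82 and 0.15 on the laser arrays, -0.24, 0.09, 1.44 and -0.10 on the bur arrays, and -0.54, -0.25, -0.43 and -1.07 on the control arrays. Bur replicate 1 was level with control replicate 2 on this mean. A list of 21 other measured genes that HIF is known to induce had means of 0.13, 0.21, 0.66 and 0.27 on the laser arrays, 0.07, -0.05, 0.86 and 0.20 on the bur arrays, and -0.82, -0.29, -0.10 and -1.15 on the control arrays. Replicate 3 was again the highest array of both the laser and the bur group, and also of the control group.

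**Figure D4:**
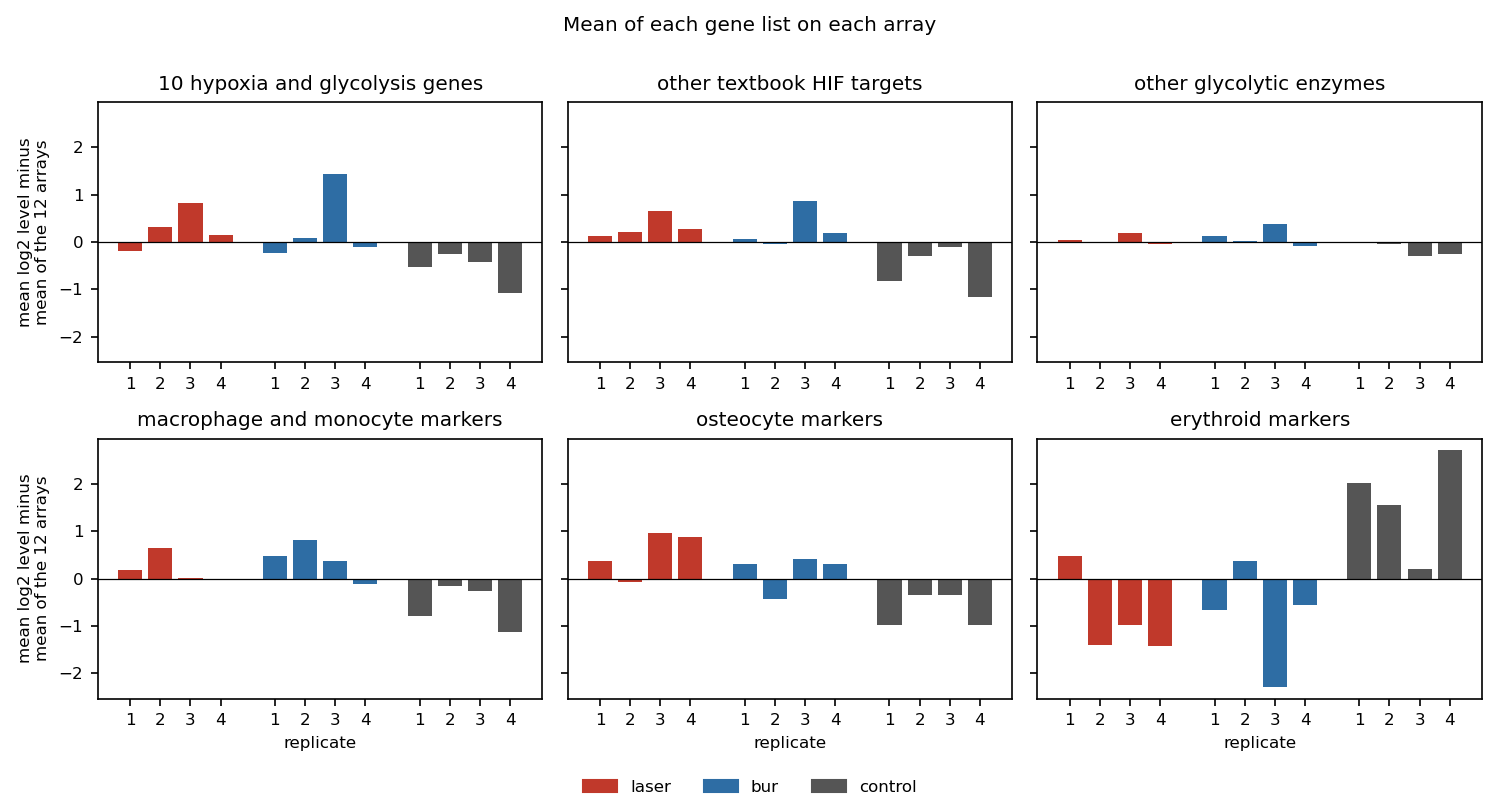
Mean log2 level of each gene list on each array, after centring every gene on its mean over the 12 arrays, with laser, bur and control from left to right and the replicate number under each bar. The 10 genes reach 1.44 on bur replicate 3 and -1.07 on control replicate 4, and the erythroid markers reach -2.29 and 2.70 on the same arrays. On laser replicate 3 the 10 genes are at 0.82, while the erythroid markers are lower on laser replicates 2 and 4 than there.

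Markers of several cell types differed between the groups, and they followed the arrays singled out above only in part. All 10 erythroid markers fell in both comparisons, with array means between -1.43 and 0.48 in laser, between -2.29 and 0.36 in bur and between 0.20 and 2.70 in control. The lowest of these means was on bur replicate 3. On laser replicate 3 the erythroid mean was -0.98, above the -1.41 and -1.43 of laser replicates 2 and 4. Of 10 macrophage and monocyte markers, 3 rose in laser and 5 in bur, with means from -0.02 to 0.65 in laser, from -0.12 to 0.80 in bur and from -1.12 to -0.16 in control. Of 5 measured osteocyte markers, 4 rose in laser and 1 in bur, with means from -0.08 to 0.97 in laser, from -0.44 to 0.41 in bur and from -0.99 to -0.35 in control. Of 9 measured neutrophil markers, 5 fell in laser and 4 in bur, and of 7 fibroblast markers, 2 rose in each. For comparison, 9.26% of all genes rose and 13.0% fell in laser, and 9.99% rose and 16.2% fell in bur. Endothelial markers lay between -0.21 and 0.27 in laser, between -0.47 and 0.17 in bur and between -0.13 and 0.15 in control. The markers of these 6 types were well above background on every array. Their part in the levels of the 10 genes was not tested. In pieces of whole bone, fewer cells of a type and less RNA per cell cannot be told apart.

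For each of the 10 genes, the 3 gene symbols with the most similar profile over the 12 arrays were found among 15462 symbols, by the mean absolute difference of centred log2 levels. This is a description over arrays that share groups and slides. Slc2a1 lay nearest to Ak4, an adenylate kinase of mitochondria, at a mean difference of 0.29, and to Ndrg1 at 0.30, where its own mean deviation was 0.96. Ndrg1 lay nearest to Ero1a, an oxidase of the endoplasmic reticulum, and Higd1a, a protein of the mitochondrial inner membrane, both at 0.18 against its own deviation of 0.72. Pgk1 and Ldha were nearest to each other, at 0.059 against deviations of 0.21 and 0.19. Next to each of them came Tyrobp, a signalling adaptor of myeloid cells, at 0.069 and 0.077. Hk2 lay nearest to Tlr4 and Tlr2, receptors for microbial products, at 0.16 and 0.19 against 0.51. Pfkfb3 lay nearest to Tnfrsf1b and Ifngr1, receptors for tumour necrosis factor and interferon gamma, at 0.17 each against 0.37. Slc16a3 lay nearest to Pdk1, a kinase that holds pyruvate back from mitochondria, at 0.23 against 0.49, with Tlr13 next at 0.23. Adm lay nearest to Bnip3, a mitochondrial protein of mitophagy, at 0.37 against 0.66. Vegfa lay nearest to Tgm2, a protein cross-linking enzyme, at 0.14 against 0.56, and Egln3 to Cda, cytidine deaminase, at 0.49 against 0.78, which is the loosest match of the 10. Of the 30 nearest places, 5 went to genes of the HIF-induced list and 3 to other genes among the 10. That list has 21 measured genes, and 15462 symbols were searched. The places that went to the 10 include Pgk1 and Ldha, each nearest to the other.

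The HIF-induced list, also chosen with earlier results of these data known, shares no gene with the 10. Of its 21 measured genes, 11 were higher and 3 lower in laser, and 10 higher and 3 lower in bur. Among all genes, 9.26% were higher and 13.0% lower in laser, and 9.99% higher and 16.2% lower in bur. The falls in the list are thus near the share over all genes. The list's median difference was 1.11 in laser and 1.02 in bur, against 0.02 and -0.0001 over all genes. Car12, a carbonic anhydrase, was higher by 2.69 in laser (SE 0.76, limma adjusted p = 0.0310). Ak4 was higher by 1.81 in laser and 1.95 in bur (limma adjusted p = 0.0336 and 0.0217), and Lox, which cross-links collagen, by 1.63 and 1.44 (limma adjusted p = 0.0254 and 0.0311). Higd1a was higher by 1.21 in laser and by 1.77 in bur (limma adjusted p = 0.0287 and 0.00656). Its probe was well above background on only 2 of the 4 control arrays, so the size of both differences is uncertain. The 3 that fell were Bnip3l, a mitophagy receptor also known from maturing red cells, by 1.12 in laser and 1.07 in bur, Mxi1, a partner of the Myc network, by 1.05 and 1.09, and Car9, another carbonic anhydrase, by 0.67 and 0.56. These 3 were named after their values were seen.

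Among 9 HIF subunits and oxygen sensors other than Egln3, Hif1a alone passed the threshold. That count of 1 in 9 is near the share of all genes that rose, 9.26% in laser and 9.99% in bur. Hif1a, the subunit that oxygen destabilises, averaged 1.40 ± 0.25 in laser, 1.33 ± 0.31 in bur and 0.44 ± 0.35 in control (SD, n = 4 each). It was higher by 0.96 in laser and by 0.89 in bur (SE 0.21 each, limma adjusted p = 0.0163 and 0.0146). The median of the 9 was 0.12 in laser and 0.11 in bur.

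Other glycolytic enzymes changed in part. Of 19 measured, 5 rose and 1 fell in laser, and 6 rose and 2 fell in bur, with medians of 0.23 and 0.24. The shares of all genes that rose were 9.26% in laser and 9.99% in bur, and those that fell 13.0% and 16.2%. Eno2, an enolase, was higher by 1.72 in laser and 1.77 in bur (SE 0.51 each, limma adjusted p = 0.0353 and 0.0268). Tpi1, triose phosphate isomerase, was higher by 1.28 and 1.59 (SE 0.33 each, limma adjusted p = 0.0240 and 0.0090). Gapdh was higher by 0.99 in laser and by 0.99 in bur (limma adjusted p = 0.0135 and 0.00872). Pgam1, phosphoglycerate mutase, was higher by 0.71 in laser and by 1.0005 in bur (limma adjusted p = 0.0310 and 0.00809). Pklr, the pyruvate kinase of liver and red cells, fell by 2.70 in laser and by 2.34 in bur (SE 0.67 each, limma adjusted p = 0.0213 and 0.0264). Gapdh is often taken as a stable gene for scaling. Here it averaged 4.22 ± 0.36 in laser, 4.23 ± 0.31 in bur and 3.23 ± 0.17 in control (SD, n = 4 each).

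Relatives of Pfkfb3, Slc2a1 and Slc16a3 changed in both directions. Pfkfb2, Pfkfb1 and Pfkfb4 all fell, by 1.14, 0.93 and 0.64 in laser and by 1.11, 0.92 and 0.63 in bur (limma adjusted p between 0.0089 and 0.0407), while Pfkfb3 had differences of 0.31 and 0.34. Of 13 other sugar and lactate carriers and their partners, 4 rose and 2 fell in laser, and 2 rose and 2 fell in bur. Of all genes, 9.26% rose and 13.0% fell in laser, and 9.99% rose and 16.2% fell in bur. The falls, and the rises in bur, are too few to set apart from those shares. Slc2a10, a glucose carrier, was higher by 1.54 in laser (SE 0.48, limma adjusted p = 0.0402), with its probe well above background on 3 of the 4 control arrays. Slc2a9, a carrier of urate, was higher by 0.62 in laser and 0.80 in bur (SE 0.15 each, limma adjusted p = 0.0206 and 0.00666), and Slc16a8, a lactate carrier named after its values were seen, by 0.79 in laser (limma adjusted p = 0.0247). Slc2a4, the insulin-responsive glucose carrier of fat and muscle, fell by 1.17 in laser and by 1.64 in bur (SE 0.25 each, limma adjusted p = 0.0142 and 0.00284). Slc16a1, another lactate carrier, fell by 1.06 and by 0.98 (limma adjusted p = 0.0317 and 0.0350), and Bsg, the chaperone of these lactate carriers, was higher by 0.98 and 0.95 (limma adjusted p = 0.0117 and 0.00831). Markers of fat cells fell too, 4 of 5 in each comparison. Their means ran from -1.68 to 0.24 in laser, from -1.61 to 0.38 in bur and from 0.94 to 2.18 in control. None of 7 skeletal muscle markers was called. The mean of the muscle markers was highest on replicate 1 in each group, at 0.88 in laser, 2.44 in bur and 3.14 in control. The part of fat or muscle cells in Slc2a4 was not tested.

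Of 14 measured receptors and relatives of Vegfa and Adm, none rose and 1 fell in laser, and none rose and 2 fell in bur, counts too small to set apart from the shares over all genes (9.26% and 9.99% higher, 13.0% and 16.2% lower). Vegfc, the ligand of lymphatic vessel growth, fell by 1.25 in laser and by 1.08 in bur (SE 0.20 each, limma adjusted p = 0.00464 and 0.00579). Kdr, the main endothelial receptor of Vegfa, fell by 0.76 in bur (SE 0.21, limma adjusted p = 0.0239). The list medians were 0.34 in both, and 9 of the 14 differences were above 0 in each. The other 3 members of the Ndrg family gave no call, and the smallest p among them was that of Ndrg3, with differences of -0.38 and -0.39 (limma adjusted p = 0.132 and 0.118). Around the entry of pyruvate to mitochondria, 11 genes were measured, including kinases that hold it back. In laser 1 rose and 1 fell, and in bur 1 rose, again too few to set apart from those shares. Dlat, a pyruvate dehydrogenase subunit, was higher by 0.50 in laser and 0.47 in bur (limma adjusted p = 0.0405 and 0.0445). Cs, citrate synthase, fell by 0.45 in laser (limma adjusted p = 0.0423). No gene of these 8 lists was called between laser and bur.

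**Figure D5:**
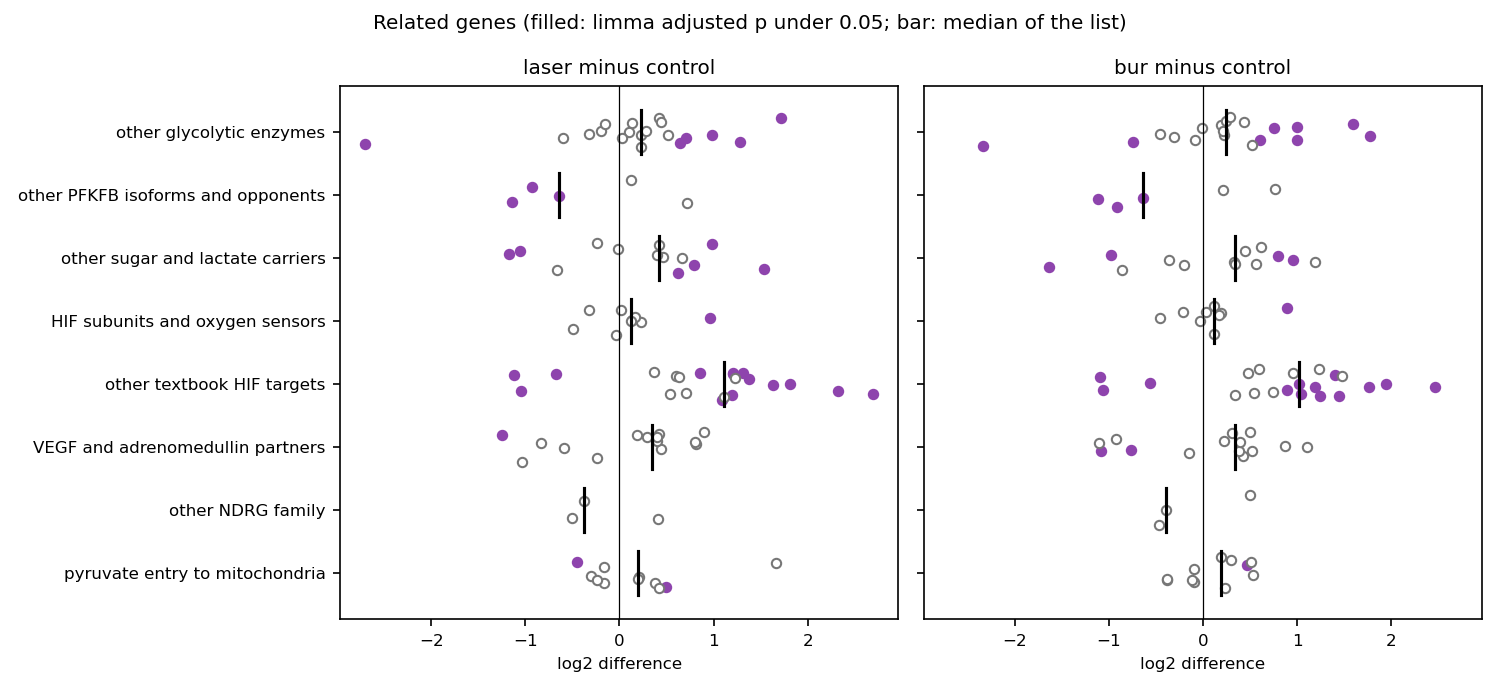
Log2 difference of each measured gene in 8 lists of related genes, as laser minus control on the left and bur minus control on the right. Filled points have a limma adjusted p under 0.05 and the vertical bar is the median of the list, which is 1.11 in laser and 1.02 in bur for the other textbook HIF targets.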

How the data were processed

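Total RNA of 12 calvaria samples was hybridised to Agilent arrays of 1 colour (Cy3), 4 arrays each for laser, bur and control, grouped by the labels. The authors deposited scanner output as spot intensity on a linear scale, made with Agilent Feature Extraction 11.0.1.1 per the file headers, background-subtracted within each array and not scaled between arrays. The authors also deposited log2 values, named as quantile-normalized, and, for each comparison, a log2 change and p-value per probe. The other steps from intensity to these are not given in the sources used here.

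Of 62976 spots, 58717 were not control spots. Spots flagged as outliers were left out, spots of a probe were averaged, and the log2 intensity was set relative to the array's 75th percentile. Probes well above background on at least 4 of 12 arrays were kept (29775 of 45598), and the brightest kept probe stood for each of 22718 gene names, which are those of the array design. No spot was saturated, and with 4 arrays a group the number of arrays limits the precision. Group means were compared over all 12 arrays with limma 3.58.1 in R 4.3.3 (lmFit and eBayes, two-sided, Benjamini-Hochberg over all genes, threshold 0.05). The procedure was tested on simulated data. Probe positions are on build rn4, per the file headers. Promoter windows are RefSeq sequence on build GRCr8.

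The members, related lists and markers were chosen with earlier results of these data known. Named genes are the 10 members, up to 4 passing genes with the largest change in each list and comparison (with none passing, the smallest p), and the 3 nearest symbols to each member. A gene that this rule took is not reported here. Whether replicate numbers pair the samples was checked by correlating what remained of same-numbered arrays once group means were taken away: 0.34, 0.18, 0.22 and 0.13 between laser and control, 0.25, 0.24, 0.16 and 0.34 between laser and bur, and 0.28, -0.05, 0.28 and 0.08 between bur and control. The largest correlation between arrays of unlike number was 0.125 for laser and control, 0.143 for laser and bur, and 0.321 for bur and control. Same-numbered values all lay above it in both comparisons with laser, barely so for replicate 4 of laser and control, and never for bur and control. The comparisons thus differed on whether same-numbered arrays were alike, so the main fit did not use the numbers and a block of them was an alternative. In every group the replicate number is also the array's row on the slide, so whether the numbers pair the samples is not settled. Alternatives changed the background correction, the scaling, the filter, the choice of probe, array weights, the arrays in the fit, a replicate block, the authors' deposited values and each array left out in turn.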

Additional observations from a re-analysis of the deposited data

Results flagged for a closer look

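A sample lay apart from the other 3 of its group in 2 of the 30 groups of 4 values examined (10 genes in 3 groups), where chance marks about 1 in 20. Adm on control replicate 4 had a log2 level of -2.38, below the other control arrays at -0.32, -0.31 and -0.08. That array was also the lowest of the 12 for 7 of the 10 genes and carried the highest mean of the erythroid markers, 2.70. Egln3 on laser replicate 3 had a log2 level of -0.42, above the other laser arrays at -3.02, -2.76 and -2.66. Bur replicate 3, at 0.17, was likewise the highest bur array for Egln3, above -3.70, -3.20 and -3.01, although it did not meet the same limit.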

How the results depend on the processing

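All 10 genes kept a difference above 0 against control in both laser and bur under the 10 alternatives that used all samples of the groups compared, and when each array was left out, except Egln3, which ran from -0.26 to 0.60 in laser and from -0.75 to 0.54 in bur with an array left out. In laser, Slc2a1 (2.10), Vegfa (1.13) and Ndrg1 (1.37) all missed the threshold without the detection filter, which tests more genes; Slc2a1 (2.10) and Ndrg1 (1.37) missed it with only the laser and control arrays in the fit, and Vegfa (0.83) missed it with the mean of its probes. The number of the 10 genes that rose in laser was then 0 without the filter and 1 with 2 groups only. In bur it was 4 with normexp background, 5 with the percentile over probes detected on all arrays, 4 with probes detected on all 12 arrays, 4 with the mean of probes and 4 with the deposited values. The genes gained in bur were Hk2 (0.79 with normexp, 1.03 with that percentile, 0.96 with probes detected on all 12 arrays, 0.88 with the mean of probes, 0.93 with deposited values), Pgk1 (0.48 with normexp, 0.56 with that percentile, 0.49 with probes detected on all 12 arrays) and Ldha (0.60 with quantile normalization, 0.49 with that percentile, 0.64 with the mean of probes, 0.89 with deposited values). Ldha also passed in laser with the deposited values (0.64), which hold another of its probes. With the replicate block Hk2 passed in laser (0.83) and in bur (0.96, where same-numbered arrays did not stand out), and no other call among the 10 changed. The cause of the other changes was not tested. normexp moved the median difference of all genes to -0.08 in laser, -0.24 in bur and 0.13 in laser against bur, and the missing filter moved it to -0.14 in bur.

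With each array left out, the rises among the 10 numbered 0 to 4 in laser and 0 to 3 in bur. Over all genes, calls numbered 1245 to 7994 in laser and 2789 to 8397 in bur, and 3172 without the filter and 1758 with 2 groups only in laser; laser against bur gave 1 without the filter. Left-out arrays gave 1.62 to 2.45 for Slc2a1, 0.97 to 1.24 for Vegfa, 1.101 to 1.58 for Ndrg1 and 0.68 to 0.95 for Slc16a3 in laser, and 1.73 to 2.56 for Slc2a1, 1.26 to 1.86 for Ndrg1, 0.72 to 1.22 for Hk2 and 0.33 to 0.59 for Pgk1 in bur.

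In laser against bur, where nothing passed, signs turned with single arrays left out: -0.40 to 0.36 for Slc2a1, -0.40 to 0.11 for Hk2, -0.28 to 0.28 for Pfkfb3, -0.21 to 0.019 for Ldha, -0.23 to 0.37 for Slc16a3, -0.35 to 0.60 for Adm, -0.38 to 1.09 for Egln3 and -0.56 to 0.11 for Ndrg1. They also turned with array weights for Pfkfb3 (0.028), Slc16a3 (0.086) and Slc2a1 (0.084) and with deposited values for Pfkfb3 (0.043) and Slc16a3 (0.015), and among related genes for Hif1an with normexp (0.20), Ndrg4 and Tigar with an array left out (-0.29 to 0.067 and -0.14 to 0.0006) and, in bur against control, Ndrg3 with the mean of probes (0.034).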
